A study of Mus musculus with 22 samples.

Results

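The step from the gene-deleted fallopian tube to the metastatic tumor was examined by setting 5 metastatic tumors (M1, M2, M3, M4 and M6) directly against 5 doxycycline-induced fallopian tubes (FT1 to FT5). These 10 samples, chosen by their titles, are part of a series of 22 mouse tissue and plasma samples. In this model doxycycline switches on a Cre recombinase under control of Pax8, a gene of the secretory cells of the oviduct, and Cre then removes floxed alleles, those of Brca1 or Brca2 among them. FT1, FT3 and FT5 were Brca2 (-/+), FT2 was Brca1 (-/-) and FT4 was Brca2 (-/-). M1 and M3 were Brca2 (-/-), M2 and M6 were Brca1 (-/+) and M4 was Brca2 (-/+). All 10 samples came from induced mice, so the comparison is between tissue states and not between a deleted and an intact genotype. M1 to M4 were peritoneal metastases and M6 was an ovarian tumor. The genotypes were not balanced between the groups. Some of the tubes and tumors came from the same mice, which the sources used here do not name. Uninduced tubes of floxed mice without the deletions (CT1 to CT5) are given beside the results as the control level.

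MicroRNAs are short RNAs that guide the silencing machinery to messenger RNAs, and the seed, bases 2 to 8 of the mature strand, sets most of the target choice, so that miRNAs with the same seed are counted as a family. The fallopian tube is lined by secretory and ciliated epithelial cells on a bed of smooth muscle and stroma, and several miRNAs mark these compartments. The miR-34 and miR-449 family is abundant in ciliated epithelia, the miR-200 family in epithelia in general, miR-143 and miR-145 in smooth muscle, and miR-223 in myeloid cells. In a bulk sample, fewer cells of a type and less RNA per cell cannot be told apart.

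The sequences of the miRNAs on which the comparison turned are shown first, in lower case with the seed in capitals, from RefSeq on build GRCm38.p6. Of 25 mature names looked up, 23 were found there, and miR-34c-5p and miR-2133 are named only. The first group is lower in M, and miR-34b-5p and miR-449a have the same seed although they lie on different chromosomes. The 5p strand of miR-34b is at chr9:51103610-51103632 on the minus strand, within the spans of Btg4 and Hoatz, and miR-449a is at chr13:113037549-113037570 on the plus strand, within the span of Cdc20b.
miR-34b-5p: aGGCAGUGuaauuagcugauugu
miR-449a: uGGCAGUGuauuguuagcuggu
miR-204: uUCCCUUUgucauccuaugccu
miR-135a: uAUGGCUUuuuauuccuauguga
miR-29c: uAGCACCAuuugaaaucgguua
miR-29b: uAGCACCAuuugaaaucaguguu
miR-141: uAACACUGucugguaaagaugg
miR-200a: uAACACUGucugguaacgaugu
miR-204 is at chr19:22750610-22750631 on the plus strand, within the span of Trpm3. miR-135a is made from 2 loci, chr9:106154140-106154162 on the plus strand and chr10:92072141-92072163 on the minus strand. miR-29c is at chr1:195037600-195037621 on the plus strand, in the span of the same long noncoding RNA gene, A330023F24Rik, as a copy of miR-29b. miR-141 and miR-200a share their seed, as do miR-29b and miR-29c.

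The second group is higher in M. Here miR-17, miR-106a, miR-20a and miR-20b are shown because the panel reads them in pairs with shared probes, and their seed is the same.
miR-223: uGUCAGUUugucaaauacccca
miR-9: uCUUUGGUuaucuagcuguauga
miR-2137: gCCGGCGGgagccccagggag
miR-205: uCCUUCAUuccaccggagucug
miR-132: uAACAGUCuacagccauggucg
miR-17: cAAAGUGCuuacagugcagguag
miR-106a: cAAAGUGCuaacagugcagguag
miR-20a: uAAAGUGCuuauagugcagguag
miR-20b: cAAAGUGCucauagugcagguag
miR-25: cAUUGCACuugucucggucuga
miR-223 is at chrX:96242884-96242905 on the plus strand. miR-9 is made from 3 loci, on chromosomes 3, 7 and 13. miR-205 is at chr1:193507503-193507524 on the minus strand, within the span of Mir205hg, and miR-25 is at chr5:138165332-138165353 on the minus strand, within the span of Mcm7.

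Expression was read with the NanoString nCounter mouse miRNA assay, which counts a fluorescent barcode for each miRNA without amplification, from 100 ng of RNA per sample. Total counts on the 566 mouse miRNA probes were between 74888 and 598321 in FT and between 70164 and 313180 in M. The mean of the 8 negative controls was between 11.1 and 21.4 counts in FT and between 7.75 and 20.4 in M, and 347 of the 566 miRNAs had a mean count below 20 over the 10 samples. A normalized count is a count scaled by the sample's own geometric mean over a fixed set of miRNAs, the 100 with the highest mean count in tissue, and all levels below are normalized counts unless counts as deposited are named. A log2 fold change is M against FT from edgeR's quasi-likelihood fit, with 5 samples per group. The standard error (SE) beside it was calculated back from the fold change and the F statistic of its test. It therefore adds nothing to the unadjusted p and is not a separate measure of the spread between samples. A miRNA was past the threshold at an adjusted p below 0.05 over all 566 miRNAs. Housekeeping mRNA probes on the panel (Actb, B2m, Gapdh and Rpl19) had a mean log2 normalized count of 10.9 in FT (SD 2.38), 12.4 in M (SD 1.06) and 9.38 in CT (SD 0.63, each n = 5), so that the amount of mRNA read beside the miRNAs moved with the groups too.

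In all, 9 of the 566 miRNAs (1.59%) were past the threshold, and 47 had an unadjusted p below 0.05. The tumors were lower in miR-34c, miR-34b-5p, miR-135a and miR-204, which makes 4 decreases (0.707%), and higher in miR-2133, miR-2137, miR-9, miR-223 and miR-1983, which makes 5 increases (0.883%). In the 5 control tubes miR-34b-5p, miR-135a and miR-204 were above the highest negative control in all 5 and miR-34c in 3, whereas miR-2133, miR-2137, miR-9 and miR-1983 were near background in tubes. Over all miRNAs the log2 fold change had a median of 0.10. DESeq2 called 30 miRNAs, 8 of these 9 among them, and limma called 10, 7 of the 9 among them. limma did not call miR-34c or miR-9.

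**Figure D1:**
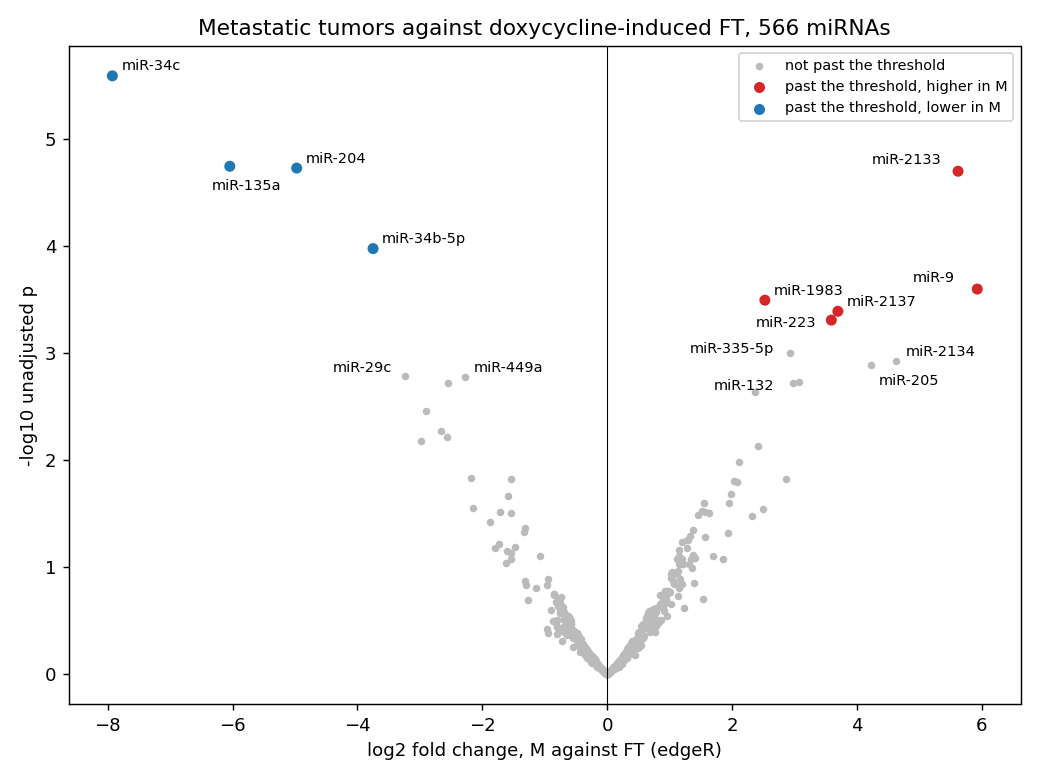
Each point is 1 of the 566 miRNAs, with the log2 fold change of M against FT on the x axis and -log10 of the unadjusted edgeR p on the y axis. The 9 colored points are past the adjusted threshold, 4 lower and 5 higher in M, and the position of miR-34c on the x axis depends on the fit since its count was 1 in all M samples.

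The number of miRNAs past the threshold depended on the tube FT2 more than on any other sample. Without FT2 there were 33 miRNAs (5.83%), 22 higher and 11 lower, and all 9 named above were among them. Without any other single sample there were between 4 (without FT3) and 18 (without M4). Of the 16 miRNAs that the naming rule listed but that fell short of the threshold, 13 were past it without FT2. The rule had listed these 16 for having the smallest p among the miRNAs short of the threshold. They were thus the nearest to it by choice, and the 13 are not a separate measure of what FT2 does. Pearson's r between FT2 and M4 was 0.887 across the 141 miRNAs that averaged 50 counts or more, while r between FT2 and FT3 was 0.393. These are correlations across miRNAs, which are not independent replicates. M2 and M6 had the highest r of any pair among the 10 samples, 0.931, and FT3 and FT5 had 0.902. Homozygous loss of Brca1 was listed for FT2 alone among these samples, and its part in the difference cannot be told apart from the animal.

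**Figure D2:**
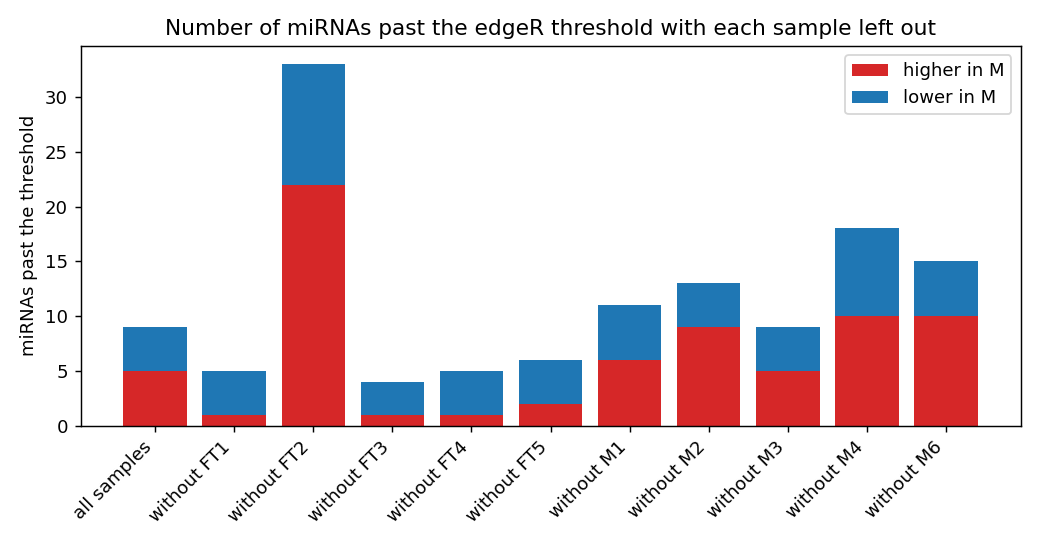
The bars give the number of miRNAs past the edgeR threshold with all 10 samples and with each sample left out, split into those higher (red) and lower (blue) in M. Leaving out FT2 gave 33, against 9 with all samples and 4 to 18 with any other sample left out.

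The clearest decreases were in miR-135a and miR-204, which carry different seeds and come from different chromosomes. miR-135a stood at 6459, 407, 11694, 27238 and 6362 in FT1 to FT5. In M1, M2, M3, M4 and M6 it stood at 82.9, 18.6, 60.6, 582 and 47.8, so that M4 lay above FT2 and the other tumors lay below all tubes. This gave a log2 fold change of -6.04 (SE 1.20, edgeR adjusted p = 0.00284), which was -7.64 without M4 and -5.30 without FT4 and past the threshold in both. The control tubes had between 5904 and 15017, so 4 of the 5 induced tubes were at or above the lowest control.

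miR-204 had 622, 61.6, 1061, 89.5 and 1171 in FT1 to FT5 and 34.8, 3.72, 13.8, 31.4 and 13.6 in M1, M2, M3, M4 and M6. No tumor reached the lowest tube. The log2 fold change was -4.97 (SE 0.99, edgeR adjusted p = 0.00284). In counts as deposited, miR-204 was at 4 to 20 in M, and in 0 of the 5 tumors was it above the highest negative control, so the size of the decrease is limited by background. The control tubes had between 997 and 2460, above FT1, FT2 and FT4 and above all tumors. The related miR-211 and miR-135b, which share a family with miR-204 and miR-135a, had mean counts below 50 and log2 fold changes above 0 (at most 0.71). The list of miR-204 and miR-135 had 2 of 4 members past the threshold, both lower.

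The second set of decreases was in the miRNAs of ciliated epithelium. miR-34b-5p had 98.1, 28.4, 681, 37.8 and 296 in FT1 to FT5 and 18.7, 13.97, 30.3, 12.1 and 10.9 in M1, M2, M3, M4 and M6. M3 overlapped FT2 and the other tumors were below every tube. The log2 fold change was -3.75 (SE 0.85, edgeR adjusted p = 0.012), and without FT3 it was -2.78 with an edgeR adjusted p of 0.0607. The other strand of the same hairpin, miR-34b-3p, had 65.6, 18.9, 166, 21.9 and 264 in FT and 42.8, 6.52, 19.3, 19.3 and 8.19 in M, with a log2 fold change of -2.55 (SE 0.75) that fell short of the threshold (edgeR adjusted p = 0.0629) and was -1.89 without FT5. miR-449a, with the seed of miR-34b-5p, had 28.4 to 125 in FT and 1.86 to 21.8 in M, without overlap, and a log2 fold change of -2.28 (SE 0.66, edgeR adjusted p = 0.0629). Its count was above the highest negative control in 2 of the 5 tubes (FT1 and FT5), so most of this separation lies at background level.

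miR-34c needs separate treatment. Its count as deposited was 295, 1, 411, 1 and 2014 in FT1 to FT5 and 1 in each of the 5 tumors, and in CT it was 2241, 1, 809, 1995 and 1. The lowest value in the file is 1, and the study's methods give no background subtraction for tissue. It passed the edgeR threshold (adjusted p = 0.00147), but no fold is given because 7 of these 10 samples, FT2 and FT4 among them, sit at that lowest value. The call was lost with limma (adjusted p = 0.522, and 0.597 with a pseudocount of 10), with quantile normalization and limma (adjusted p = 0.392) and with the methods' test (0.644). With the replicate block the edgeR adjusted p was 0.328. That fit matches samples by numbers that do not pair them, and FT5 and M6, without a partner number, add nothing to its difference. It therefore cannot show whether a call holds. miR-449b and miR-449c were near background in all samples, with log2 fold changes above 0 (at most 0.38). The list of ciliated epithelium had 2 of 6 members past the threshold, both lower, and a median log2 fold change of -2.41 against 0.10 for all miRNAs. Its summed level was 109 to 1785 in FT and 32.6 to 107 in M. For miR-449a and both strands of miR-34b, 0 of the 5 tumors were above their highest negative control, and miR-34b-5p exceeded it in 3 of the 5 tubes (FT1, FT3 and FT5). FT2, listed as Brca1 (-/-), and FT4, listed as Brca2 (-/-), had the lowest sums among tubes, 109 and 135, against 316 to 3773 in CT. In both tubes miR-34c, miR-449a and both strands of miR-34b were below the highest negative control, so these sums lie at background level. The part of the genotype was not tested and cannot be told apart from the animal.

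**Figure D3:**
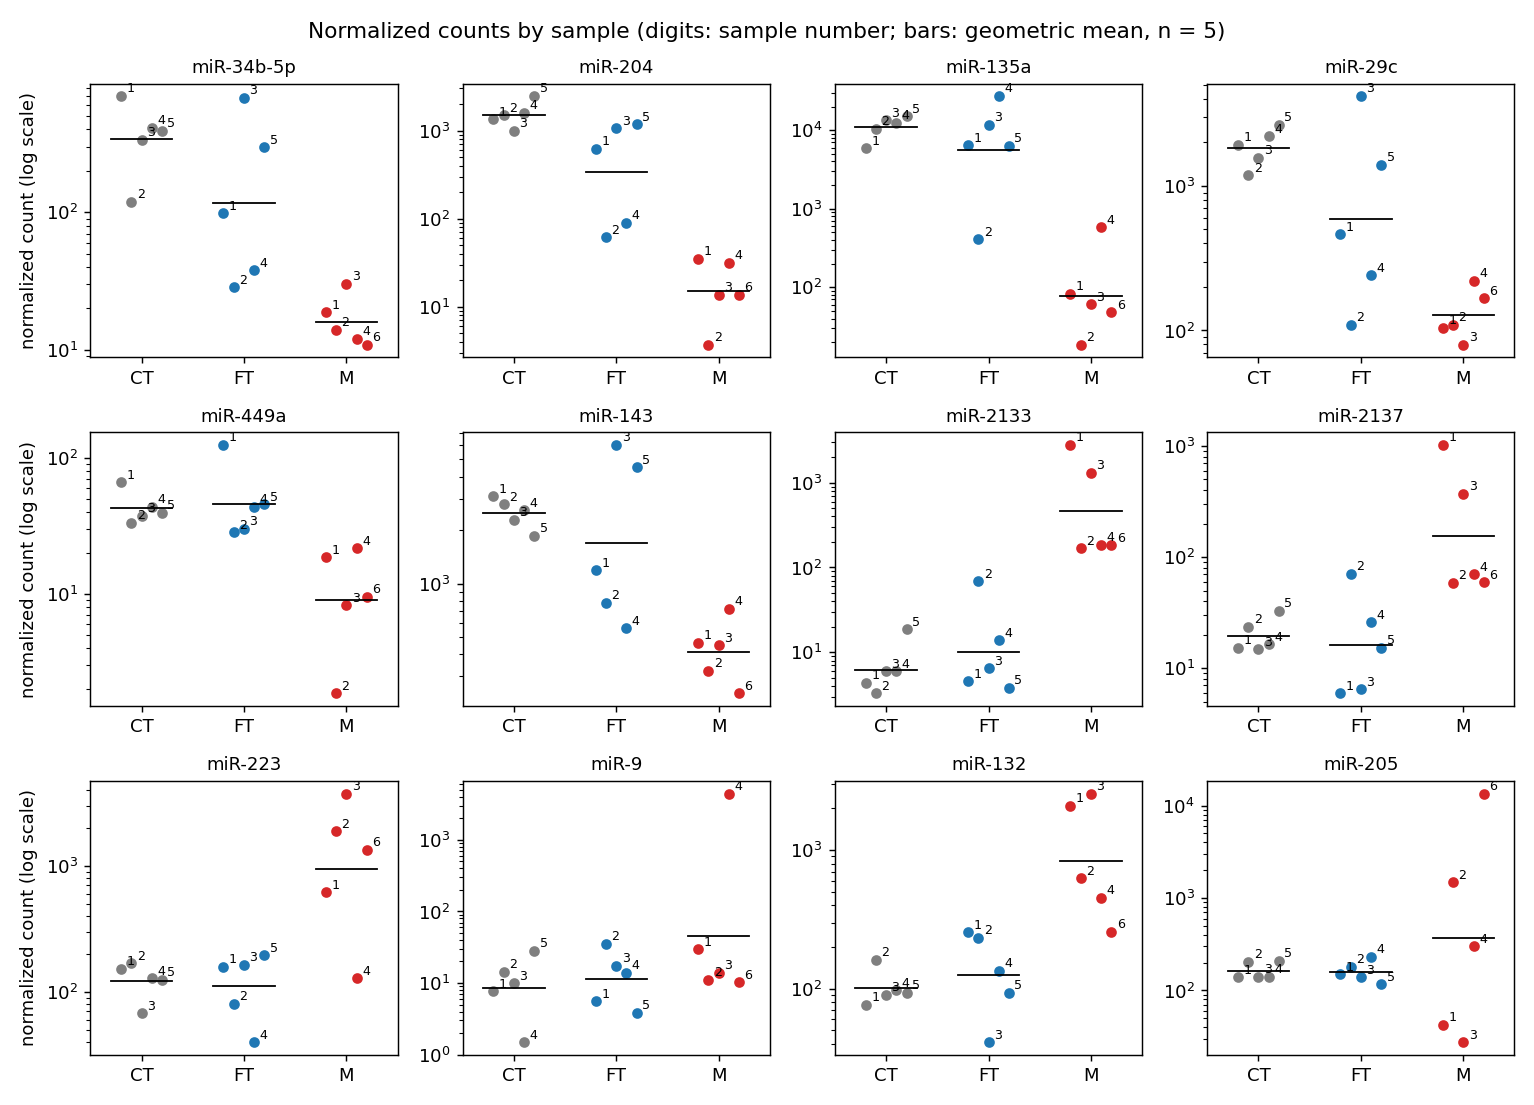
Normalized counts on a log scale are plotted for 12 miRNAs in CT (gray), FT (blue) and M (red), with each point numbered by sample and a bar at the geometric mean of 5. miR-204, miR-449a, miR-2133 and miR-132 show no overlap of FT and M, miR-9 is high in M4 alone, and FT2 lies nearest to M for miR-135a and miR-2133.

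Other miRNAs abundant in the tube had a fold change below 0 that fell short of the threshold. miR-29c, whose family is known to repress collagen and other matrix genes, had 463, 109, 4190, 241 and 1395 in FT and 79.9 to 220 in M, so that FT2 lay inside the range of M. Its log2 fold change was -3.23 (SE 0.94, edgeR adjusted p = 0.0629), and it was -3.53 without FT2 (edgeR adjusted p = 0.00766), -3.47 without M4 (0.0457) and -2.02 without FT3 (0.522). miR-29b had 679, 87.6, 7806, 274 and 1879 in FT and 74.9 to 752 in M, with a log2 fold change of -2.98 (SE 1.03, edgeR adjusted p = 0.169), which was -1.43 without FT3 (0.891), -3.29 without FT2 (0.0249) and -3.82 without M6 (0.0490). miR-29a, the most evenly expressed member, had a log2 fold change of -1.14 (SE 0.78), and thus 0 of 3 members of the family were past the threshold, with a family median of -2.98.

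Smooth muscle miRNAs were of the same kind. miR-143 had 1185, 777, 6027, 559 and 4506 in FT and 463, 324, 449, 720 and 241 in M, with a log2 fold change of -2.57 (SE 0.88, edgeR adjusted p = 0.164). miR-145, from the same cluster, had 1535 to 11944 in FT and 325 to 2745 in M, with a log2 fold change of -1.88 (SE 0.87, edgeR adjusted p = 0.497). miR-1, a muscle miRNA, had 399, 175, 618, 968 and 348 in FT and 32.1, 11.2, 5.51, 256 and 32.1 in M, with a log2 fold change of -2.90 (SE 0.92, edgeR adjusted p = 0.103). Without M4, the tumor with the most miR-1, it was -4.61 (edgeR adjusted p = 0.00222), and without FT2 it was -3.12 (0.0249). With any other single sample left out it stayed short of the threshold, at an edgeR adjusted p between 0.104 (without FT5) and 0.283 (without M3). The list of smooth muscle and stroma had 0 of 5 members past the threshold and a median of -1.88, and all 5 fold changes were below 0. Its summed level was 3111 to 16868 in FT and 626 to 3821 in M.

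The epithelial miR-200 family split the tumors. miR-200c had 7765, 7919, 1848, 21362 and 3877 in FT, and 104, 978, 46.8, 18142 and 2708 in M1, M2, M3, M4 and M6. M4 was at the level of the highest tube, M6 within the range of tubes, and M1, M2 and M3 below all tubes. Its log2 fold change was -0.96 (SE 1.07, edgeR adjusted p = 0.993), and it was -3.15 without M4 (0.175) and -0.28 without FT4 (0.997). miR-200a was likewise lowest in M1 and M3 among tumors, with 26.8, 165, 33.1, 955 and 1224, against 550 to 3483 in FT (log2 fold change -1.80, SE 0.95, edgeR adjusted p = 0.668). miR-141, which shares its seed with miR-200a, had 205, 130, 1483, 714 and 307 in FT and 32.1, 26.1, 19.3, 176 and 194 in M, with a log2 fold change of -2.65 (SE 0.89, edgeR adjusted p = 0.153), which was -2.91 without FT2 (0.0283) and -1.91 without FT3 (0.570). The list of epithelium had 0 of 5 members past the threshold and a median of -0.96, and its summed level ran from 8247 to 45392 in FT and from 242 to 42010 in M. M1 and M3, the lowest at 546 and 242, were the tumors with deletion of both Brca2 alleles. The part of the genotype was not tested.

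Broadly expressed families had smaller fold changes. The miR-30 family, abundant in differentiated epithelia, had 0 of 5 members past the threshold, but all 5 fold changes were below 0, with a median of -1.33. miR-30a had 268 to 1372 in FT and 154 to 310 in M, with a log2 fold change of -1.72 (SE 0.76, edgeR adjusted p = 0.441). The list of miR-125, miR-99 and miR-100 had 0 of 5 past the threshold and a median of -1.54. Its most abundant member, miR-125b-5p, had 5344 to 21728 in FT and 1730 to 7096 in M, with a log2 fold change of -1.54 (SE 0.84, edgeR adjusted p = 0.691). Among the miRNAs encoded in the Hox clusters, 0 of 5 were past the threshold (median -0.95), and they did not go the same way. miR-10b, within the spans of Hoxd3 and Hoxd4, had 1094, 3513, 395, 2447 and 547 in FT and 661, 385, 300, 268 and 156 in M, with a log2 fold change of -2.18 (SE 0.84, edgeR adjusted p = 0.309), while miR-196a had 8.18 to 208 in FT and 21.4 to 1092 in M, with a log2 fold change of 1.93 (SE 0.94, edgeR adjusted p = 0.574).

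Among the increases, miR-2133 and miR-2137 belong to a group of probes with consecutive names, miR-2132 to miR-2141, listed with miR-720. miR-2133 had 4.54, 68.7, 6.48, 13.9 and 3.82 in FT1 to FT5 and 2790, 168, 1312, 186 and 184 in M1, M2, M3, M4 and M6. Every tumor was above every tube, and in 0 of the 5 tubes was its count above the highest negative control. In log2 terms the fold change was 5.62 (SE 1.13, edgeR adjusted p = 0.00284), and it was 7.07 without FT2 and 4.62 without M1, both past the threshold. miR-2137 had 5.93, 71.1, 6.48, 25.8 and 15.3 in FT and 1022, 58.7, 372, 70.1 and 59.4 in M, with a log2 fold change of 3.70 (SE 0.94, edgeR adjusted p = 0.0288). In M2, M4 and M6 it did not exceed FT2. The fold change was 4.57 without FT2 (edgeR adjusted p = 0.00167) and 2.53 without M1 (0.0857), and the adjusted p was between 0.0782 and 0.156 without FT1, FT3, FT4 or FT5. The call was also lost with miR-425 scaling (edgeR adjusted p = 0.255), positive ligation control scaling (0.279) and negative control subtraction (0.0605). So it was with minimum mean counts of 20 (0.0682) and 50 (0.0522), and with quantile normalization and limma (0.118). Across all 27 alternatives, left-out samples included, miR-2137 was past the threshold in 14.

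Among the other probes of this group, miR-2134 had 16.1, 613, 23.8, 25.8 and 6.54 in FT and 11155, 116, 3378, 2175 and 73.7 in M, with a log2 fold change of 4.63 (SE 1.30, edgeR adjusted p = 0.0606). It was 7.57 without FT2 (edgeR adjusted p = 0.000157) and 3.40 without M1 (0.141), and it was past the threshold without any one of M2, M3, M4 and M6. miR-2132 had 10.4 to 727 in FT and 35.5 to 2737 in M, miR-2140 had 19.4 to 1308 and 146 to 1672, and miR-2141 had 37.6 to 5848 and 2129 to 9481. In all 3 the highest tube was FT2, and without it their log2 fold changes went from 2.49, 1.23 and 1.86 to 4.85, 4.70 and 4.79, each past the edgeR threshold. In total 2 of 11 members were past the threshold, both higher, with a median log2 fold change of 1.38. miR-2146, a neighbor in name but not in the list, had 26.7 to 140 in FT and 44.7 to 1177 in M, with a log2 fold change of 3.07 (SE 0.91, edgeR adjusted p = 0.0629).

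The housekeeping mRNA probes also varied over the samples. Their mean log2 normalized count was 11.93, 13.82, 7.91, 11.81 and 9.08 in FT1 to FT5 and 12.60, 11.09, 12.10 and 13.98 in M1 to M4, with M6 between M2 and M3. FT2 and M4 were the highest, and FT3 and FT5 the lowest. Among the tubes FT2 had the most miR-2133 and miR-2137, and among the tumors M1 had the most of both. The part of the housekeeping level in these miRNAs was not tested. miR-1224, within the span of Vwa5b2, had 62.5, 2563, 62.7, 239 and 43.6 in FT and 13486, 494, 4075, 2712 and 750 in M. Its log2 fold change was 2.86 (SE 1.11, edgeR adjusted p = 0.309), and 5.41 without FT2 (edgeR adjusted p = 0.0013).

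miR-223, a miRNA of neutrophils and macrophages, was higher in M. It had 158, 80.5, 164, 39.8 and 195 in FT1 to FT5 and 615, 1885, 3739, 128 and 1342 in M1, M2, M3, M4 and M6, so that M4 was within the range of tubes and the other tumors above it. The log2 fold change was 3.59 (SE 0.93, edgeR adjusted p = 0.031), and it was 2.96 without M3 (0.120), while the adjusted p was between 0.0607 and 0.151 without FT1, FT3, FT4 or FT5. The call was also lost with TMM (edgeR adjusted p = 0.164), median-of-ratios (0.128), miR-425 (0.0591) and positive ligation control scaling (0.804). So it was with negative control subtraction (0.0605) and quantile normalization with limma (0.170). The replicate block, with the limit given above, gave an edgeR adjusted p of 0.328. DESeq2 (adjusted p = 0.000112) and limma (0.0305) kept it. The leukocyte list had 1 of 5 members past the threshold and a median of 0.76. Its summed level was 785 to 1336 in FT and 967 to 6301 in M. miR-142-3p, present in all blood lineages, did not move with miR-223, with 50.6 to 720 in FT and 79.8 to 526 in M. miR-150, a lymphocyte miRNA, had 164 to 792 in FT and 131 to 1805 in M. No level is given for miR-155, whose count was 1 in all 15 tissue samples.

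The erythrocyte list, a measure of blood in the tissue, had 0 of 4 past the threshold and a median of 0.77. miR-451, which red cells hold in great amount, had 218, 163, 2194, 187 and 224 in FT and 230, 879, 2507, 184 and 1286 in M, with a log2 fold change of 0.77 (SE 0.91, edgeR adjusted p = 0.993), which was 2.36 without FT3 and 0.11 without M3. M3, the tumor with the most miR-223, also had the most miR-451. The endothelial list had 0 of 2 past the threshold (median -0.42), and that of mesenchyme 0 of 3 (median 0.41). In the latter, miR-199a-3p had 340 to 2752 in FT and 290 to 13036 in M, with M2 highest and M4 lowest, and a log2 fold change of 1.70 (SE 0.94, edgeR adjusted p = 0.691).

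The increase in miR-9, a miRNA best known from neural tissue, came from a single tumor. M4 had 4425, while the other tumors had 10.2 to 29.4 and the tubes 3.82 to 35.5. The log2 fold change was 5.93 (SE 1.44, edgeR adjusted p = 0.0239), but without M4 it was 0.14 (edgeR adjusted p = 0.999), and without FT1, FT3 or FT4 the adjusted p was between 0.0607 and 0.157. In 0 of the 5 tubes and in 1 of the 5 tumors was the count above the highest negative control. miR-205, a miRNA of stratified epithelia, was high in M6 and M2. It had 117 to 231 in FT and 42.8, 1483, 27.6, 300 and 13448 in M1, M2, M3, M4 and M6, so that M1 and M3 were below all tubes. The log2 fold change was 4.23 (SE 1.20, edgeR adjusted p = 0.0606), and 1.51 without M6 (edgeR adjusted p = 0.701).

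miR-132, a miRNA induced by the transcription factor CREB, was higher in every tumor than in any tube. It had 255, 232, 41.1, 135 and 93.2 in FT1 to FT5 and 2084, 625, 2551, 454 and 258 in M1, M2, M3, M4 and M6. The log2 fold change was 2.98 (SE 0.88), short of the threshold (edgeR adjusted p = 0.0629). miR-335-5p, which lies in the span of the imprinted gene Mest, had 26.1 to 84.3 in FT and 257, 567, 708, 31.4 and 177 in M, with M4 at the level of tubes (log2 fold change 2.94, SE 0.81, edgeR adjusted p = 0.0564).

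The miR-17-92 cluster and its paralogs, which act in proliferating cells and are induced by Myc and E2F factors, held 3 of the 8 miRNAs (1.41% of 566) whose tumor and tube values did not overlap. The shared probe of miR-106a and miR-17 had 165 to 396 in FT and 440 to 2554 in M. This gave a log2 fold change of 2.03 (SE 0.80, edgeR adjusted p = 0.309). The shared probe of miR-20a and miR-20b had 330 to 1336 in FT and 1401 to 4979 in M, with a log2 fold change of 2.07 (SE 0.81, edgeR adjusted p = 0.309). miR-25, encoded within Mcm7, had 391 to 1822 in FT and 2036 to 5883 in M, with a log2 fold change of 1.98 (SE 0.81, edgeR adjusted p = 0.392). For each the highest tube was FT2. In total 0 of 11 members were past the threshold and the median was 0.22, although the summed level was 1497 to 3946 in FT and 4860 to 14115 in M.

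The 8 miRNAs without overlap were these 3 with miR-132, miR-1983 and miR-2133, which were higher in M, and miR-204 and miR-449a, which were lower. Of these, miR-449a was above the highest negative control in 2 of the 5 tubes and in 0 of the 5 tumors. For each of the 8, the two-sided exact permutation test over samples gave p = 0.00794, the smallest that 5 samples against 5 allow, and 0.562 after Benjamini-Hochberg adjustment over the 566 miRNAs. The lack of overlap by which the 8 were chosen fixes this unadjusted p in advance, so it adds nothing to the lack of overlap. miR-1983, named after its values were seen because its mean count of 31.3 lies below the minimum of the naming rule, had 5.45 to 26.1 in FT and 40.1 to 121 in M (log2 fold change 2.53, SE 0.63, edgeR adjusted p = 0.026). The adjusted p was between 0.0607 and 0.103 without FT1, FT3, FT4, FT5 or M3. Its count was above the highest negative control in 3 of the 5 tumors and in 0 of the 5 tubes.

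**Figure D4:**
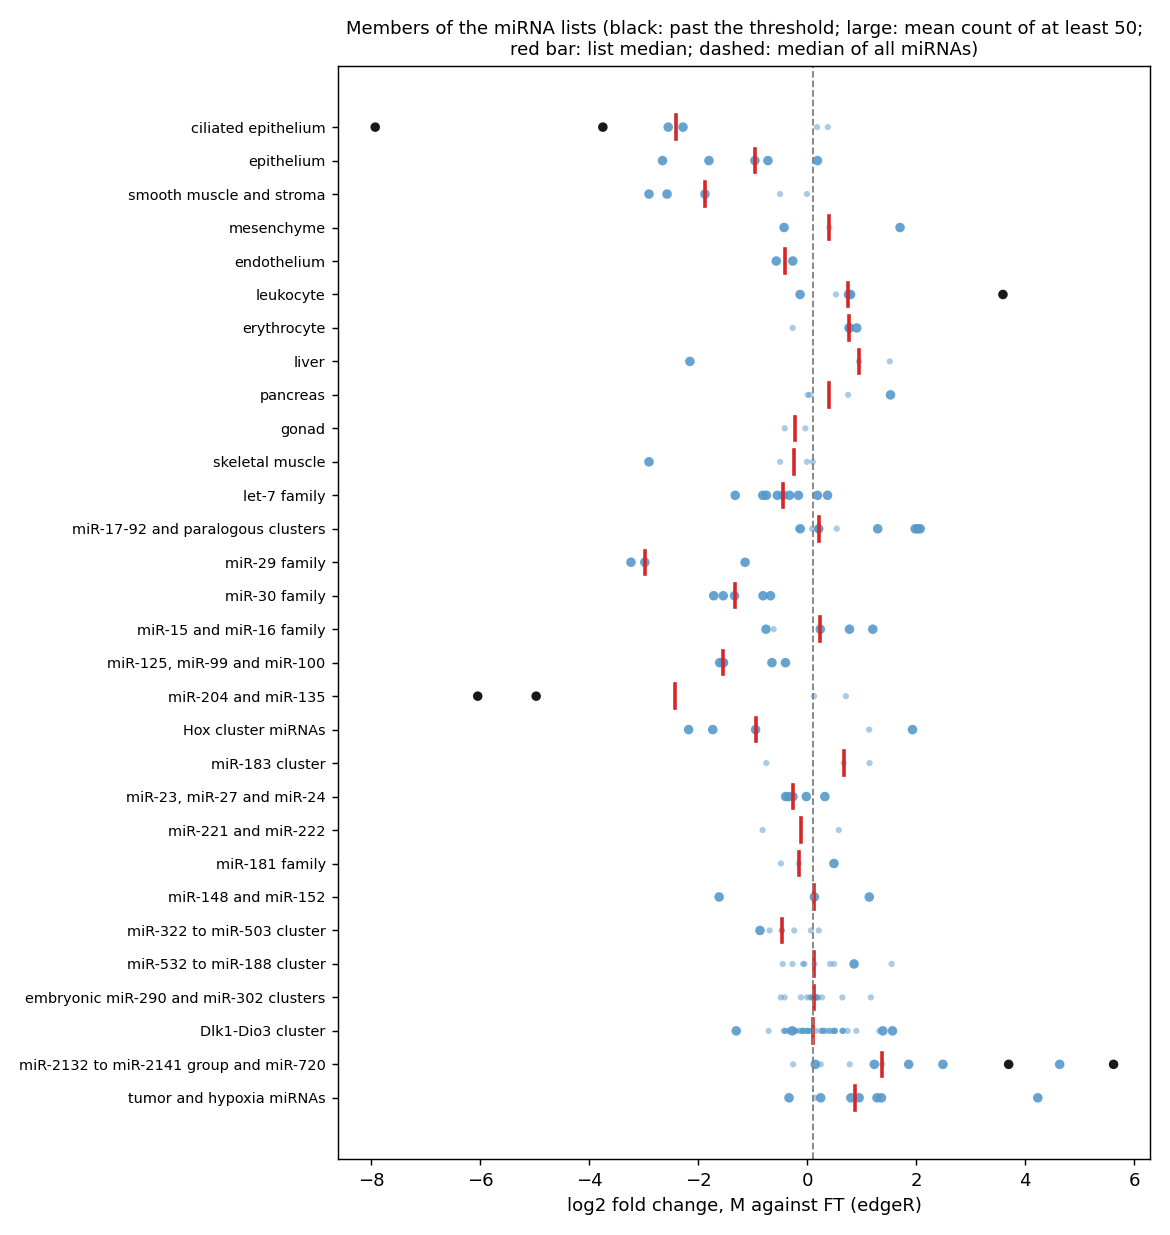
Each point is the log2 fold change of M against FT for a member of a list, with large points for a mean count of at least 50, black for members past the threshold, a red bar at the list median and a dashed line at the median of all miRNAs, 0.10. The lists of ciliated epithelium and of miR-204 and miR-135 have the members farthest below 0, and the group of miR-2132 to miR-2141 has the one farthest above.

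Markers of organs that a peritoneal or ovarian tumor could have touched were also read. The liver list had 0 of 3 past the threshold. Its defining member miR-122 had 18.5, 30.8, 1269, 31.8 and 168 in FT and 24.8 to 129 in M, so the highest level was in a tube, FT3, with a log2 fold change of -2.15 (SE 0.93, edgeR adjusted p = 0.441) that was 0.11 without FT3. The pancreas list had 0 of 4 past the threshold (median 0.40), and its acinar members miR-216a and miR-217 had at most 45.9 and 31.4 in M. miR-375, a miRNA of islets and of many other epithelia, had 24.1, 28.9, 13.8, 4978 and 17.1 in M and 125 to 662 in FT. M4 was above all tubes and the other 4 tumors below all. The gonad list had 0 of 2 past the threshold and a summed level of 65.4 to 203 in FT and 34.5 to 234 in M, where the ovarian tumor M6 had 51.2. The skeletal muscle list, which shares miR-1 and the miR-133 pair with that of smooth muscle, had 0 of 4 past the threshold (median -0.25).

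Tumors thus differed among themselves in several miRNAs that did not separate the groups. M4 also had the highest miR-194 and miR-192, at 237 and 285, where the other tumors had 21.4 to 40.9 and 13.4 to 33.1. miR-7a was 979 in M4 and 70.3 to 227 in the other tumors (log2 fold change against FT 1.40, SE 0.78, edgeR adjusted p = 0.691, and 0.30 without M4). M6 had the highest miR-203, with 308 against 27.6 to 111 in the other tumors, and the highest miR-183, with 124 against 13.4 to 24.2. M2 had the highest miR-382 and miR-376c of the imprinted Dlk1-Dio3 cluster, 1032 and 280, where M1 and M3 had 24.8 to 27.6. M1 and M3 were the lowest pair of tumors in miR-200a, miR-200b, miR-200c, miR-429 and miR-205 and the highest pair in miR-2133, miR-2137, miR-132 and miR-1224.

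**Figure D5:**
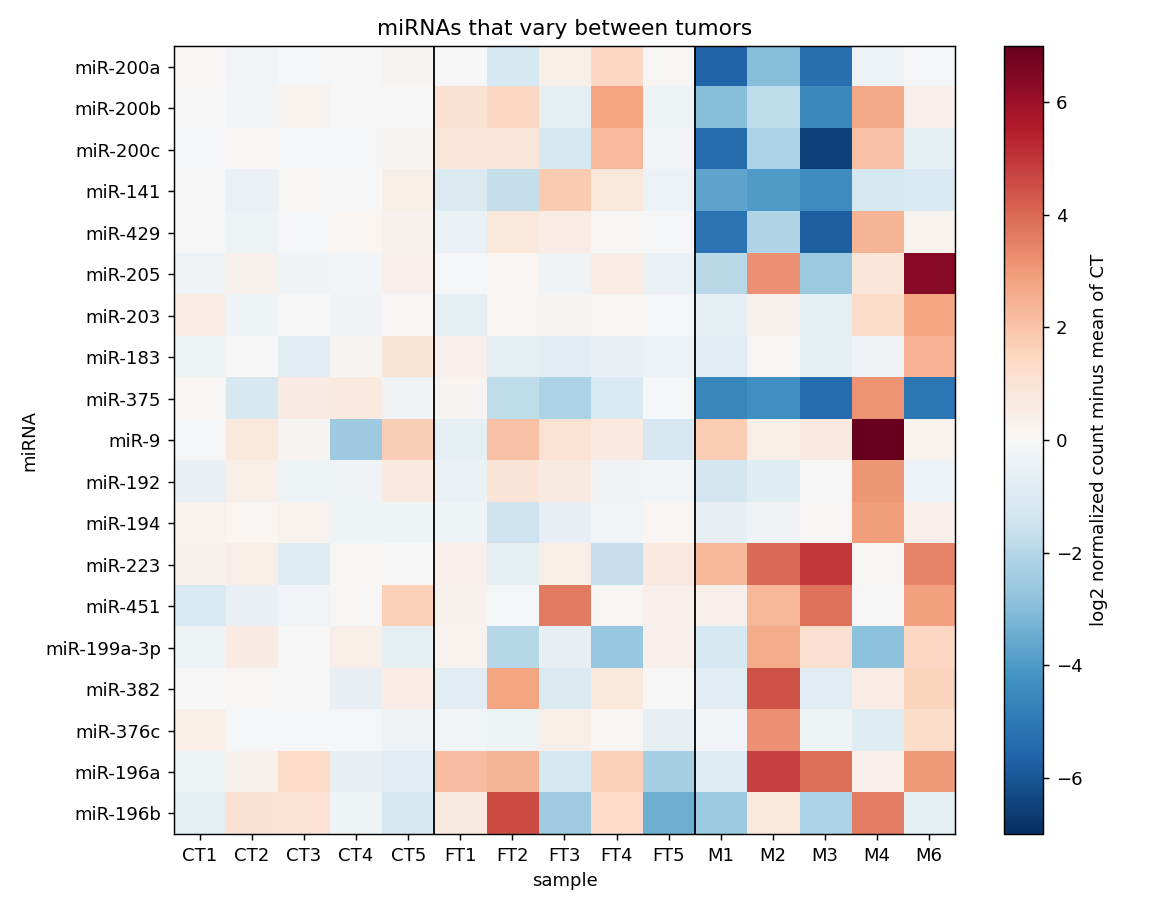
The colors give log2 normalized count minus the mean of CT for 19 miRNAs in each of the 15 tissue samples. M1 and M3 are low across the miR-200 family, M4 is high in miR-9, miR-375, miR-192 and miR-194, M6 is high in miR-205, and the color scale ends at 7 in both directions.

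A list of 19 of the miRNAs that the study names was also read, which leaves out others it names, such as those for which it found no human homolog (miR-2132, miR-2134, miR-2140 and miR-2141 among them). Of the 19, 0 were past the edgeR threshold between M and FT (4 had an unadjusted p below 0.05, DESeq2 called 3 and limma 0), 14 of 19 had a fold change above 0, and the median was 0.54. This list was chosen by the study on these samples. miR-21, an abundant miRNA of tumors and stroma, had 2817, 2868, 2913, 4288 and 1391 in FT and 4473, 12694, 4731, 3751 and 11052 in M, with M2 and M6 highest (log2 fold change 1.36, SE 0.81, edgeR adjusted p = 0.769). miR-146a, a feedback regulator of NF-kB signaling, had 249 to 1073 in FT and 499 to 1493 in M (log2 fold change 0.80, SE 0.77, edgeR adjusted p = 0.993). The endothelial miR-126-3p had 11847, 54989, 2825, 22324 and 4185 in FT and 7720 to 19856 in M, so that the tubes spread more widely than the tumors (log2 fold change -0.26, SE 0.88, edgeR adjusted p = 0.993). This value turned to 0.64 without FT2.

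miR-210, the miRNA most directly induced by hypoxia, had 42.5 to 1732 in FT and 441 to 1635 in M, and FT2 was the tube at 1732 (log2 fold change 0.95, SE 0.88, edgeR adjusted p = 0.993). miR-22 had 1295 to 16178 in FT and 6519 to 11129 in M, and miR-532-5p 28.1 to 632 and 130 to 463, again with FT2 highest of all 10 samples. miR-486, of red cells, had 33.2 to 204 in FT and 81.9 to 409 in M. For these 3 the log2 fold changes were 0.54 (SE 0.85), 0.86 (SE 0.83) and 0.91 (SE 0.73), each with an edgeR adjusted p of 0.993. Without FT2, miR-532-5p was 2.53 (edgeR adjusted p = 0.0325), miR-210 was 2.46 (0.0754) and miR-22 was 1.47 (0.459). The list of tumor and hypoxia miRNAs, of which miR-21, miR-146a and miR-210 are also members, had 0 of 8 past the threshold and a median of 0.88.

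In the remaining lists no member was past the edgeR threshold. They were let-7 (9 members, median -0.44), miR-15 and miR-16 (5, 0.24), miR-23, miR-27 and miR-24 (5, -0.26), miR-148 and miR-152 (3, 0.13), miR-181 (3, -0.15), miR-221 and miR-222 (2, -0.12), the miR-183 cluster (3, 0.67), the miR-322 to miR-503 cluster (7, -0.46), the miR-532 to miR-188 cluster (9, 0.13), the embryonic miR-290 and miR-302 clusters (16, 0.12) and the Dlk1-Dio3 cluster (40, 0.11). let-7a, a brake on proliferation genes in many tissues, had 9596, 18230, 1431, 24195 and 4520 in FT and 2306 to 7603 in M, with FT3 below all tumors and FT1, FT2 and FT4 above them. miR-148a had 123 in FT2 but 4421 to 10734 in the other tubes, and 490 to 3334 in M. In all, 27 of the 31 lists had 0 members past the edgeR threshold. Of these 27, 12 had a member with an unadjusted p below 0.05, 9 had a DESeq2 call and 2, those of smooth muscle and skeletal muscle with their shared miR-1, had a limma call.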

How the data were processed

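Counts of barcodes, as deposited by the authors, cover 626 probes of the NanoString mouse miRNA assay (version 1.5), 566 of them for mouse miRNAs and 60 for controls, housekeeping mRNAs and miRNAs of other species. Per the study's methods, normalization was done in nSolver 3.0 without background subtraction, but the deposited values are whole counts of at least 1. All columns matched a sample. Here the 566 counts of 10 samples were tested in R 4.3.3 by edgeR 4.0.16 (quasi-likelihood, geometric means of the 100 miRNAs with the highest mean over 15 tissue samples as library sizes, Benjamini-Hochberg adjustment, threshold 0.05), and the fit was tested on simulated data. DESeq2 1.42.0, limma 3.58.1, the methods' t-test, other scalings, filters, pseudocounts of 1 and 10, negative control subtraction, a replicate block and each sample left out were alternatives, with robust dispersions added after seeing the data. Permutation tests and tables used pandas 2.3.3 and numpy 2.4.6 under Python 3.11.15.

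Named are, in each direction, the 12 miRNAs with the largest changes past the threshold among those with a mean count of at least 50, filled up by the smallest p, members of 31 lists of cell type markers, families and clusters, and 19 of the miRNAs that the study names. The members and lists were chosen with earlier results of these data known. The labels do not say that samples are separate animals throughout, and some tubes and tumors share a mouse. The tests treat the samples as independent, which the shared mice do not meet, so the p-values hold only under that assumption. M5 was not analysed here, and the further alleles of the model are not reported here. With 5 samples per group and many miRNAs near the negative controls, small changes of low miRNAs were not detectable.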

Additional observations from a re-analysis of the deposited data

Results flagged for a closer look

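In 8 of 110 groups of 5 samples, a named miRNA had a sample whose gap to its neighbor was above 0.71 of the group's range on the log2 scale, where chance gives about 1 in 20. miR-9 was 4425 in M4 against 10.2 to 29.4 in the other tumors. The shared probe of miR-106a and miR-17 was 165 in FT4 against 331 to 396 in the other tubes. miR-93 was 154 in FT2 against 39.8 to 54.5 in the other tubes, and in M3 it was 262 against 133 to 156 in the other tumors. miR-126-3p was 7720 in M6 against 17274 to 19856 in the other tumors. miR-148a was 123 in FT2 against 4421 to 10734 in the other tubes. miR-451 was 2194 in FT3 against 163 to 224 in the other tubes. miR-2140 was 1308 in FT2 against 19.4 to 29.4 in the other tubes. Outside the miRNA probes, the housekeeping mRNA probes were above the control level, by 2.98 on the log2 scale in M and by 1.53 in FT.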

How the results depend on the processing

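With all samples, 9 miRNAs passed the threshold, 5 higher and 4 lower in M, with 7 of them in the lists. TMM and median-of-ratios scaling each gave 3 higher and 7 lower. Scaling to miR-425 gave 2 in all, 0 higher and 2 lower (2 in the lists, and 33 at an unadjusted p below 0.05). Quantile normalization with limma gave 4, 2 higher and 2 lower (3 in the lists). Scaling to the positive ligation controls gave 2 higher. DESeq2 gave 30, 16 higher and 14 lower (22 in the lists), with an adjusted p of NA for 316. The methods' t-test gave 0, 0 higher and 0 lower (0 in the lists), with 39 at an unadjusted p below 0.05. Subtraction of negative controls and minimum mean counts of 20 and 50 each gave 3 higher. CT, FT and M fitted together gave 23, 13 higher and 10 lower (17 in the lists). The number of miRNAs without overlap of M and FT, 8, was 5 with miR-425 scaling, 13 with quantile normalization and 2 with positive ligation control scaling. The cause was not tested.

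Leaving out each sample in turn gave 4 to 33 miRNAs, 1 to 22 higher and 3 to 11 lower, with 4 to 22 in the lists. miR-34c, miR-135a, miR-204 and miR-2133 were the 4 past the threshold in each of these fits. With the sample number as a replicate block, there were 2 miRNAs, 1 higher and 1 lower (2 in the lists). Deviations of samples of the same number correlated at -0.37, -0.29, 0.13 and 0.31 for numbers 1 to 4. Those of different numbers ran from -0.47 to 0.36, so these correlations cannot tell whether the numbers pair the samples. The listed Brca genotypes of tube and tumor differed at each of the numbers 1 to 4, so the numbers do not pair the samples. FT5 and M6 have no partner number and add nothing to the difference in the block fit. That fit therefore cannot show whether a call holds.

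The 9 miRNAs past the threshold kept their direction in all alternatives run, and of 59 named miRNAs examined in this way 4 turned. miR-205 was -0.29 with the replicate block, to which M6, its highest sample, adds nothing. miR-146a was -0.0398 with positive ligation control scaling. miR-126-3p was 0.85 with quantile normalization, 0.45 with limma, 0.45 with the methods' t-test, 0.45 with a pseudocount of 10, 0.31 with the replicate block and -0.54 to 0.64 with a sample left out. miR-122 was 0.0377 with the replicate block and -2.53 to 0.11 with a sample left out. The median over all miRNAs lay between -0.17 and 0.34.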
